A study of Mus musculus with 6 samples.

Results

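The 9 genes described here were grouped as transporter genes for the recovery of filtered amino acids in the kidney proximal tubule. They are Slc6a19, Slc6a18, Slc6a20b, Slc7a9, Slc3a1, Slc7a7, Slc3a2, Slc7a8 and Slc1a1. A region of open chromatin was assigned to a gene when it held a peak summit in the gene body or within 20 kb of it (GRCm38, GENCODE M21), which gave 126 of 99359 regions. The rule used gene identity and position and no peak value. Accessibility was profiled by ATAC-seq in 6 libraries; the method uses a transposase that inserts sequencing adapters where DNA is open. Every library was made from 3 hand-dissected S1 segments, the first stretch of the proximal tubule, pooled before the reaction, from wild-type male C57BL/6 mice of 7 weeks (20 to 30 g). Kidneys had been taken 24 h after a sham operation (libraries Sham 1, Sham 2 and Sham 3) or after unilateral nephrectomy, the surgical removal of 1 kidney (UNx 1, UNx 2 and UNx 3). The comparison asks whether chromatin at these genes differs between tubules of the remaining kidney and tubules of sham-operated mice. The labels do not say whether the libraries of a group came from different mice, so p-values measure the spread between libraries, which may be technical.

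Filtered amino acids enter proximal tubule cells through carriers in the apical brush border and leave through exchangers in the basolateral membrane. Slc6a19 is the main apical sodium-coupled carrier of neutral amino acids, and Slc6a18 is a related apical carrier. Slc6a20b belongs to the same gene family, and Slc1a1 takes up glutamate and aspartate. Some carriers work only as pairs of a light and a heavy chain: Slc7a9 with Slc3a1 takes up cystine and dibasic amino acids at the apical side, and Slc7a7 or Slc7a8 with Slc3a2 exchanges amino acids at the basolateral side. Defects of SLC6A19 cause Hartnup disorder, defects of SLC3A1 or SLC7A9 cystinuria, and defects of SLC7A7 lysinuric protein intolerance.

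Accessibility is given as a percentile rank. Only the 77355 peaks of highest −log10 q were kept from each library, the length of the shortest list, so that 100 stands for the strongest peak of a library and 0 for no peak among those 77355. Peak lists hold no read counts, so the sequencing depth is unknown and no interval that needs it is given. The deposited lists held 77355 to 97834 peaks in Sham and 93583 to 100999 in UNx, and Sham 2 was the shortest. The S1 label was checked on promoters of marker genes: all 10 S1 markers had a peak, with a median percentile of 88.7 and summed percentiles of 816 to 838 in Sham and 822 to 842 in UNx. All 4 immune markers and 3 of 4 stromal markers were at 0 in every list, as were Slc12a3 and Aqp2 of the distal nephron. The other 4 markers of the loop, distal tubule and collecting duct had a promoter peak in every list. Their mean percentiles were 89.9 for Scnn1g, 67.4 for Umod, 65.6 for Calb1 and 43.5 for Slc12a1. Col1a1, the remaining stromal marker, had a mean percentile of 65.1. Summed percentiles of 5 S3 markers were 165 to 231 in Sham and 137 to 141 in UNx, those of 6 markers of the loop, distal tubule and collecting duct 268 to 291 and 237 to 263, those of 5 endothelial markers 23.5 to 39.8 and 0 to 4.39, and those of 3 podocyte markers 55.7 to 77.8 and 64.4 to 106. The part of other cells in the results below was not tested.

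The majority of the regions at the 9 genes had a peak in every library, and no region passed the test for a difference between them. Of the 126 regions, 70 (55.6%) were present in all 6 lists, against 53.4% of all regions. Promoter regions of the 9 genes (a summit within 1 kb of a coding start of the gene) numbered 15, promoters of neighbouring genes 5 and distal regions 106, and 82 of the 126 summits lay in introns. Distal regions made up 84.1% of these regions and 84.2% of all regions. Of 93 regions present in at least 3 lists and therefore tested, limma called 0 at a Benjamini-Hochberg adjusted p of 0.05, where it called 0.788% of all tested regions (589). With any 1 library left out the calls over all regions were 30 to 379, and 0 at the 9 genes each time. The smallest adjusted p was 0.0930, at a region upstream of Slc6a19. An unadjusted p under 0.05 was found at 20 regions, which is 21.5% of those tested against 18.6% of all tested regions. Of the 93 tested, 14 had such a p and were higher in UNx, against 9.08% of all tested regions. Another 6 of the 93 had such a p and were lower, against 9.50%.

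**Figure D1:**
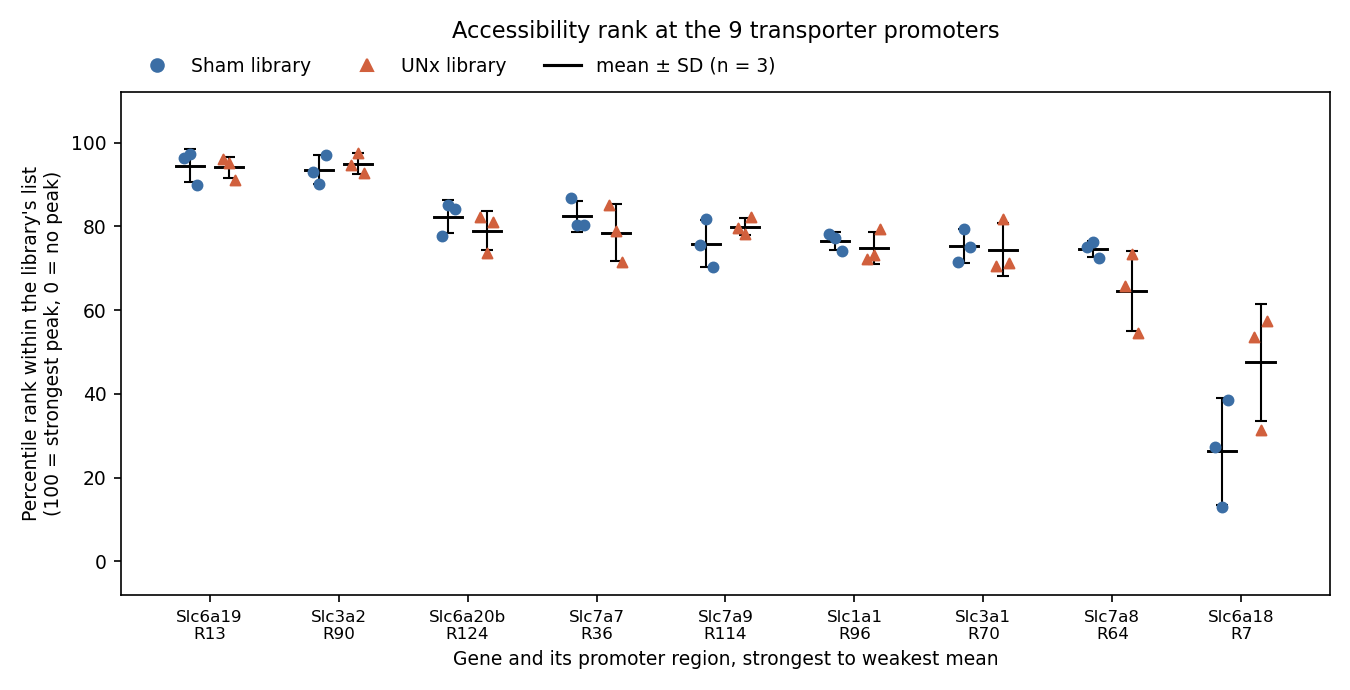
Percentile rank of the promoter region of each of the 9 genes in 3 Sham libraries (circles) and 3 UNx libraries (triangles), with mean and SD as black lines. Slc6a19 and Slc3a2 stand highest in all 6 libraries and Slc6a18 has the lowest mean, with UNx 1 and UNx 3 above every Sham library.

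Taking the strongest promoter region of each gene, the 9 promoters fell into 3 levels. Slc6a19 (mean percentile 94.3 over 6 libraries) and Slc3a2 (94.2) stood highest, and none of their 12 values, all at least 89.9, overlapped those of the next gene. Slc6a20b (80.7), Slc7a7 (80.5), Slc7a9 (77.9), Slc1a1 (75.7), Slc3a1 (74.9) and Slc7a8 (69.6) followed, with each neighbour in that order within the spread of the libraries. Slc6a18 was lowest at 36.9, and its highest library (57.5) overlapped only the lowest library of Slc7a8 (54.5). Among 13739 protein-coding genes with a promoter region, 75.4% had a lower mean percentile than Slc6a19, 75.2% than Slc3a2 and 12.6% than Slc6a18. The median of the 9 promoters was 77.9, against 85.5 for all coding promoters.

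Among these 9 regions, the strongest promoter region of each gene, the widest differences between the operations were 21.2 percentile points at Slc6a18 and -10.01 at Slc7a8. In UNx, 3 of the 9 had the higher mean and 6 the lower, with a median difference of -0.90 points against -0.19 for all tested coding promoters. None of the 9 had an unadjusted p under 0.05.

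Slc6a19, the main apical carrier of neutral amino acids, held the most accessible distal region of the group, R11 (chr13:73692188-73693069, an intron by GENCODE). It ranked 68th, 207th and 98th in Sham 1, 2 and 3 and 73rd, 474th and 768th in UNx 1, 2 and 3, which are percentiles of 99.9, 99.7 and 99.9 and of 99.9, 99.4 and 99.0. Of 83614 distal regions in all libraries only 8 had a higher mean. Its summit lay 8141 bp inside the gene from the GENCODE coding start, but 3 bp from the start of a second RefSeq transcript of Slc6a19 at position 73692636, so by RefSeq it is a promoter. The region at the GENCODE coding start, R13 (chr13:73700376-73701797, summit 17 bp from the start in the UTR), was at 96.3, 97.4 and 89.9 in Sham and 96.1, 95.1 and 91.2 in UNx. R11 was thus the stronger of the 2 start regions in each library. Neither differed between the operations beyond the spread, with a difference of -0.41 points (SE 1.14) at R11 and -0.42 points (SE 2.03) at R13, and adjusted p of 0.887 and 0.938 by limma. The authors' fold enrichment at R11 was 11.1, 10.6 and 10.7 in Sham and 10.3, 8.04 and 8.57 in UNx, so on that scale the groups did not overlap, and ranked by fold the differences were -14.2 points at R11 and -11.0 at R13, also not past the threshold. With regions joined by a reciprocal overlap of 50%, R13 differed by -32.1 points, again not past it. The interval at R13 was 1394 bp wide in UNx 2 and 636 to 666 bp in the other libraries. The part of this width in the -32.1 points was not tested.

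The sequences upstream of the internal Slc6a19 start and of the Slc6a18 start are shown because these starts of neighbouring carriers hold R11, the strongest start region of the group, and R7, the weakest of the 9 leading promoter regions. Each is the 200 bases before the start on the gene's strand (the reverse strand of GRCm38), read from the RefSeq assembly, and neither holds any of the 9 strings searched. GC content was 58.5% before the internal Slc6a19 start and 47.0% before Slc6a18.
Slc6a19 internal start, chr13:73692637-73692836: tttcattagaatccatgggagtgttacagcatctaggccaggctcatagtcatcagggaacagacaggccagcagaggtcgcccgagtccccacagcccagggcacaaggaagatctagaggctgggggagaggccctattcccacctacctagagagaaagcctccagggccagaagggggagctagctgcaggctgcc
Slc6a18 start, chr13:73678024-73678223: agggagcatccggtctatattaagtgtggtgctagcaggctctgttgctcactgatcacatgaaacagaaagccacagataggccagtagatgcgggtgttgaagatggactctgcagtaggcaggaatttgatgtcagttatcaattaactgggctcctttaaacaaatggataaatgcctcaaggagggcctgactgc

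Slc6a18, a related apical carrier, begins downstream of Slc6a19 in the same orientation, and 7 regions lay in the windows of both genes. Its promoter region R7 (chr13:73677881-73678618, summit 104 bp upstream of the start) was at 27.4, 13.0 and 38.4 in Sham and 53.5, 31.5 and 57.5 in UNx. The groups overlapped, since UNx 2 lay below Sham 3. The difference of 21.2 points (SE 10.7) had an unadjusted p of 0.0630 and an adjusted p of 0.297 by limma. Among the strongest promoter regions of the 9 genes this was the smallest unadjusted p. Over 13738 other genes, the promoters with the most similar percentiles in the 6 libraries were those of Jade2, Fabp1 and Tmem30b, at Euclidean distances of 13.4, 14.2 and 15.3 points. Fabp1 encodes the liver-type fatty acid binding protein, and its promoter was at 20.99, 20.2 and 30.9 in Sham and 58.7, 33.4 and 62.2 in UNx. The promoter of Jade2, the nearest, was at 22.97, 18.4 and 39.3 in Sham and 45.15, 24.8 and 61.6 in UNx. The groups overlapped at Jade2 and at Tmem30b. These genes were picked for values like those of R7, so the likeness is part of the choice.

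**Figure D2:**
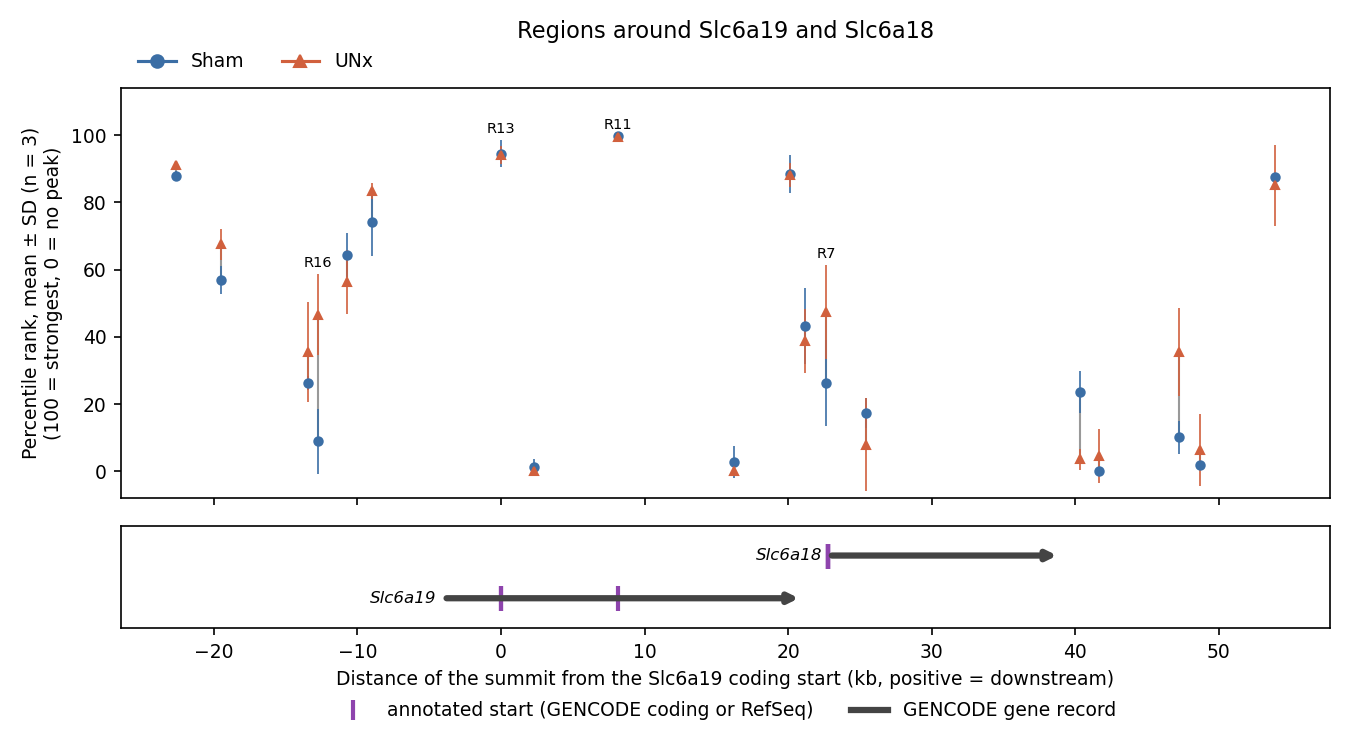
Regions around Slc6a19 and Slc6a18 by distance from the Slc6a19 coding start in kb, with the mean percentile rank and SD of 3 Sham (circles) and 3 UNx (triangles) libraries. The gene records and annotated starts are drawn below. R11, at the internal start, is near 100 in both operations, while R16 upstream has a mean of 8.89 in Sham and 46.6 in UNx.

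The region with the smallest p of all was R16 (chr13:73713202-73713698), intergenic and 12752 bp upstream of the Slc6a19 coding start. It had no peak among the strongest 77355 in Sham 1 and was at 19.1 and 7.63 in Sham 2 and Sham 3, against 40.5, 38.8 and 60.5 in UNx 1, 2 and 3. All 3 UNx libraries lay above all 3 Sham libraries. R16 was picked for a small unadjusted p and separate groups, so the lack of overlap is part of the choice. Groups were apart in 23.7% of all tested regions. The difference of 37.7 points (SE 11.1) had an unadjusted p of 0.00304 and an adjusted p of 0.0930 by limma, which misses the threshold. Its neighbours differed by less: R17, 13413 bp upstream, differed by 9.14 points, R15, 10728 bp upstream, by -8.0 points, and the stronger R14, 8977 bp upstream, by 9.43 points. The 200 bases around the R16 summit, on the reverse strand of GRCm38, are shown because the region had the smallest p of the 93, and they hold none of the strings searched.
R16, chr13:73713432-73713631: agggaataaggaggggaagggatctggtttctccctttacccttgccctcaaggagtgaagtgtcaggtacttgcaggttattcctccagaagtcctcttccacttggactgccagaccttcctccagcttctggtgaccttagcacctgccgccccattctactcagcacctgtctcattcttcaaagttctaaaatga

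Slc6a20b, of the same gene family as Slc6a19, had its promoter region R124 (chr9:123631795-123633368, summit 22 bp from the coding start in the UTR) at 77.7, 85.2 and 84.2 in Sham and 82.3, 73.8 and 81.0 in UNx. The groups overlapped and the difference was -3.36 points (SE 3.83, adjusted p 0.680 by limma). The strongest distal region in its window was R120 (chr9:123589182-123589945), in an intron of the neighbouring gene Sacm1l, 42850 bp from the Slc6a20b start. It was at 94.4, 85.9 and 88.0 in Sham and 93.8, 94.9 and 95.6 in UNx, an overlap of Sham 1 alone with the UNx range. R125, in an intron of the paralog Slc6a20a, was close behind at a mean of 91.0.

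Slc7a9, the light chain of the apical cystine carrier, had its promoter region R114 (chr7:35447380-35449250, summit in the UTR) at 75.7, 81.7 and 70.3 in Sham and 79.6, 78.1 and 82.2 in UNx. The difference was 4.06 points (SE 4.24, adjusted p 0.648 by limma). The region held a pair of strong summits in every library, 392 to 423 bp before and 38 to 60 bp after a GENCODE coding start. The −log10 q of the upstream summit was 58.6, 34.6 and 49.2 in Sham and 51.6, 54.2 and 113 in UNx, and that of the downstream summit 55.7, 33.6 and 42.9 in Sham and 31.6, 78.2 and 132 in UNx. The upstream summit was the stronger in the 3 Sham libraries and UNx 1, and the downstream summit in UNx 2 and UNx 3. In each Sham list the interval was cut upstream of both summits, in UNx 1 between them and in UNx 2 and UNx 3 nowhere. The strongest distal region R116 (chr7:35456056-35456899, intron, 7109 bp from the start) was at 51.1, 51.0 and 59.5 in Sham and 62.3, 71.7 and 67.7 in UNx. The groups did not overlap there, and the difference of 13.4 points (SE 6.51) had an adjusted p of 0.280 by limma.

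Slc3a1, the heavy chain that brings Slc7a9 to the membrane, showed nearly the same ranks in both operations at its promoter and its strongest distal region. Its promoter region R70 (chr17:85028040-85029116, summit 8 bp from the coding start in the UTR) was at 71.4, 79.5 and 75.2 in Sham and 70.5, 81.7 and 71.2 in UNx. Its strongest distal region R72 (chr17:85040669-85041365, intron, 12725 bp from the start) was at 77.3, 85.1 and 79.1 in Sham and 76.7, 85.5 and 79.0 in UNx. The differences were -0.90 points (SE 4.79) and -0.07 points (SE 3.87). Other intronic regions differed more, by 15.4 points at R75, -13.2 at R74, 10.3 at R71 and 9.47 at R73. None of the 10 tested regions of Slc3a1 had separate groups, and none had an unadjusted p under 0.05.

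Sequences of both Slc3a1 regions are shown because they hold strings of liver and kidney transcription factors near the summit. The first is the 200 bases before the RefSeq start on the forward strand, with the AP-1 string TGANTCA and, 72 bp before the summit, the HNF4 string CAAAGTCCA in capitals. The AP-1 match lies outside the 201 bases around the summit that were searched in all regions. The second is the 200 bases around the R72 summit with the HNF1 string GTTAATNAT in capitals, 13 bp from the summit.
Slc3a1 start, chr17:85028147-85028346: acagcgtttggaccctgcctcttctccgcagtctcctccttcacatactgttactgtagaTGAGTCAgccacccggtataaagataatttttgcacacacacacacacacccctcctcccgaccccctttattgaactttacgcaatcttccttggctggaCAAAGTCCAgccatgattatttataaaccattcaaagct
Slc3a1 intron R72, chr17:85041001-85041200: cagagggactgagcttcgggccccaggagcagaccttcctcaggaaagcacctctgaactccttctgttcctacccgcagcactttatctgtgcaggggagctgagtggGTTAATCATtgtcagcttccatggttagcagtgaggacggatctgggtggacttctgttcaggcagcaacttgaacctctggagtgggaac

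Slc7a7, the light chain of the basolateral exchanger of cationic and neutral amino acids, was open at its internal starts and not at its first ones. GENCODE and RefSeq place its most upstream starts between positions 54417679 and 54417944 of chromosome 14, and the nearest summit of any deposited peak lay 3187 bp from them. Region R37, 25 bp from a coding start at position 54410216, was at 69.2, 71.3 and 54.2 in Sham and 54.2, 76.3 and 71.0 in UNx. The stronger region R36 (chr14:54408240-54408654, an intron) was at 86.7, 80.3 and 80.4 in Sham and 85.1, 78.8 and 71.5 in UNx. Its summit lay 976 bp from the nearest coding start, just inside the 1 kb that defines a promoter here. The differences were 2.29 points at R37 and -3.99 points (SE 4.07) at R36, and the groups overlapped at both. The strongest distal region R30 (chr14:54387426-54388231, intron) was at 78.7, 75.0 and 79.2 in Sham and 79.7, 80.3 and 84.6 in UNx, where the groups were apart by a small margin (difference 3.92 points, SE 3.77).

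The only regions of the 126 present in all lists of 1 operation and in no list of the other were 2 intronic regions of Slc7a7, R29 and R34, both in UNx. All regions showed this UNx pattern in 1.04% of cases and the reverse pattern in 0.934%. R29 (chr14:54386055-54386674) was at 13.4, 11.2 and 32.0 in UNx 1, 2 and 3, and R34 (chr14:54402507-54402729) at 9.07, 19.4 and 3.38. With all deposited peaks R29 also had a peak in 2 of 3 Sham lists, and R34 in none. Their differences of 18.8 points (SE 8.35) and 10.6 points (SE 7.22) had adjusted p of 0.235 and 0.450 by limma.

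Slc3a2, the heavy chain shared by Slc7a7 and Slc7a8, had 3 separate open start regions. R92 (summit 72 bp from the most upstream coding start) had a mean percentile of 89.9, R90 (chr19:8713253-8714266, summit 434 bp from the nearest coding start) of 94.2 and R89 (6 bp from the most downstream coding start) of 75.9. R90 was at 93.1, 90.2 and 97.1 in Sham and 94.8, 97.5 and 92.7 in UNx. R89 was at 68.8, 64.2 and 78.6 in Sham and 78.0, 82.2 and 83.8 in UNx, a difference of 10.8 points with an unadjusted p of 0.0349 by limma, and UNx 1 overlapped Sham 3. R91 (chr19:8718415-8718641, intron), between R90 and R92, was at 36.5, 35.0 and 43.6 in Sham and was present in UNx 3 alone of the UNx lists, at 25.2. That difference was -29.9 points (SE 11.1, adjusted p 0.162 by limma). The strongest distal region R86 (chr19:8695286-8695865, intergenic), 17400 bp from the nearest coding start, had a mean of 72.7 in Sham and differed by 2.07 points (SE 5.27).

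Slc7a8, the light chain of a basolateral exchanger of neutral amino acids, had the most regions of the 9 genes with an unadjusted p under 0.05. Of its 17 tested regions, 9 did, and none passed the adjusted threshold. Over the 93 regions, these 9 included, 20 did, and 18.6% of all tested regions did. The gene was singled out by looking over the 9 genes, so the count is no test. Its promoter region R64 (chr14:54781605-54782260, summit 12 bp from the coding start in the UTR) was at 75.2, 76.2 and 72.5 in Sham and 65.8, 73.5 and 54.5 in UNx. UNx 2 overlapped the Sham range there, and the difference was -10.01 points (SE 5.71, adjusted p 0.359 by limma). The adjacent region R63 (chr14:54780962-54781353), 686 bp downstream in a coding exon, was at 50.9, 45.0 and 56.6 in Sham and 72.3, 80.2 and 63.6 in UNx. All UNx libraries lay above all Sham libraries, with a difference of 21.2 points (SE 6.71), an unadjusted p of 0.00535 and an adjusted p of 0.113 by limma. R63 thus ranked below R64 in every Sham library and above it in every UNx library. R63 was picked for a small unadjusted p and groups that do not overlap, which 23.7% of all tested regions had. The lack of overlap is therefore part of the choice, and the change of order is no test.

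**Figure D3:**
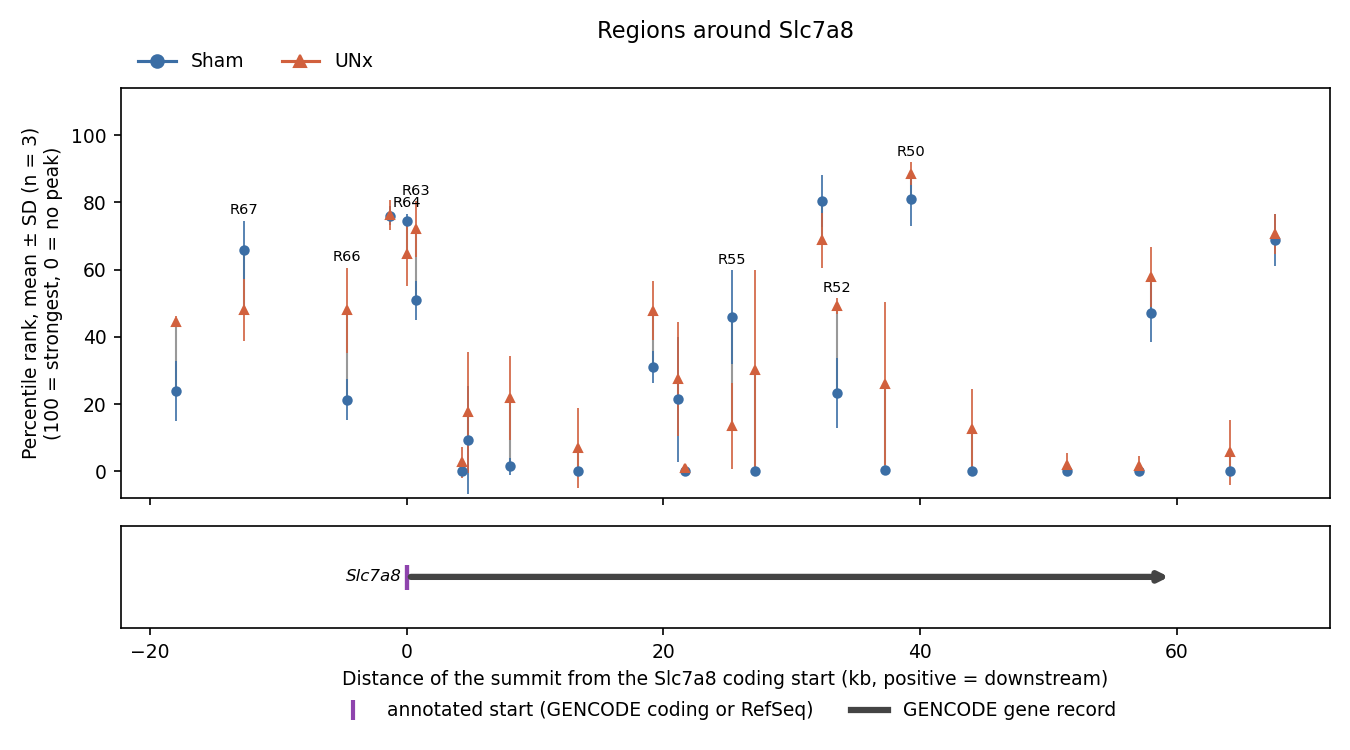
Regions around Slc7a8 by distance from its coding start in kb, with the mean percentile rank and SD of 3 Sham (circles) and 3 UNx (triangles) libraries. R64 at the start is lower and R63 just downstream is higher in UNx, and R55 and R52 inside the gene differ in opposite directions.

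Other regions of Slc7a8 differed in both directions. R52 (chr14:54748197-54748623, intron) was at 34.8, 20.96 and 14.2 in Sham and 51.3, 49.4 and 46.8 in UNx, and R66 (chr14:54786487-54786930), 4671 bp upstream of the start, at 25.7, 14.4 and 23.8 in Sham and 50.9, 34.1 and 58.7 in UNx. R55 (chr14:54756312-54756763, intron) was at 43.7, 60.7 and 33.1 in Sham and 25.2, 15.1 and 0 in UNx. R67 (chr14:54793757-54794932), 12702 bp upstream, was at 64.6, 75.1 and 57.8 in Sham and 56.1, 38.0 and 50.2 in UNx. These 4 regions were picked for a small unadjusted p and groups that do not overlap, so the lack of overlap is part of the choice. Of all tested regions, 23.7% had such groups. The differences were 25.8 (SE 9.92), 26.6 (SE 10.4), -32.4 (SE 11.3) and -17.7 points (SE 7.53), with adjusted p of 0.174, 0.181, 0.142 and 0.215 by limma. The strongest distal region R50 (chr14:54742062-54743116, intron), 39294 bp inside the gene, was at 71.8, 85.5 and 85.7 in Sham and 85.5, 92.2 and 88.0 in UNx, with an overlap.

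Slc1a1, the apical carrier of glutamate and aspartate, had a promoter region of like rank in both operations. Mean ranks were higher in UNx at a pair of regions just inside the gene, while regions farther along differed in both directions. The promoter region R96 (chr19:28834546-28835541, summit 8 bp from the coding start in the UTR) was at 78.1, 77.3 and 74.1 in Sham and 72.3, 73.1 and 79.3 in UNx, a difference of -1.62 points (SE 4.40). R97 (chr19:28836054-28836599), 1245 bp downstream in an intron, was at 69.6, 65.2 and 63.4 in Sham and 80.7, 75.9 and 85.2 in UNx. The groups did not overlap, and the difference of 14.6 points (SE 4.81) had an unadjusted p of 0.00720 and an adjusted p of 0.125 by limma. R97 too was picked for a small unadjusted p and separate groups. Groups were apart in 23.7% of all tested regions. The next region R98 (chr19:28836651-28837372), 1726 bp downstream, was the strongest distal region of the gene, at 85.3, 71.1 and 85.7 in Sham and 88.5, 95.6 and 84.9 in UNx. UNx 3 lay within the Sham range there, and the difference was 8.94 points (SE 3.80, adjusted p 0.215 by limma). With a library left out the R98 difference was 4.14 (without Sham 2) to 11.4 points. Of the 15 tested regions of Slc1a1, 4 had groups apart, R97 among them. The others were R105, with means of 56.8 in Sham and 68.1 in UNx, and R106 and R108, both lower in UNx. R106 had means of 60.2 in Sham and 44.1 in UNx, and R108 of 74.9 and 63.3. The 200 bases around the R97 summit on the forward strand are shown because R97 is the intronic region of smallest p, and they hold none of the strings searched.
R97, chr19:28836219-28836418: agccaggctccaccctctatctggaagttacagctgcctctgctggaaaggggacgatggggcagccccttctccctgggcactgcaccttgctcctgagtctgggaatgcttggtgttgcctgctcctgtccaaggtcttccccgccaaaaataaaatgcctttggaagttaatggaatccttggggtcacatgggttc

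**Figure D4:**
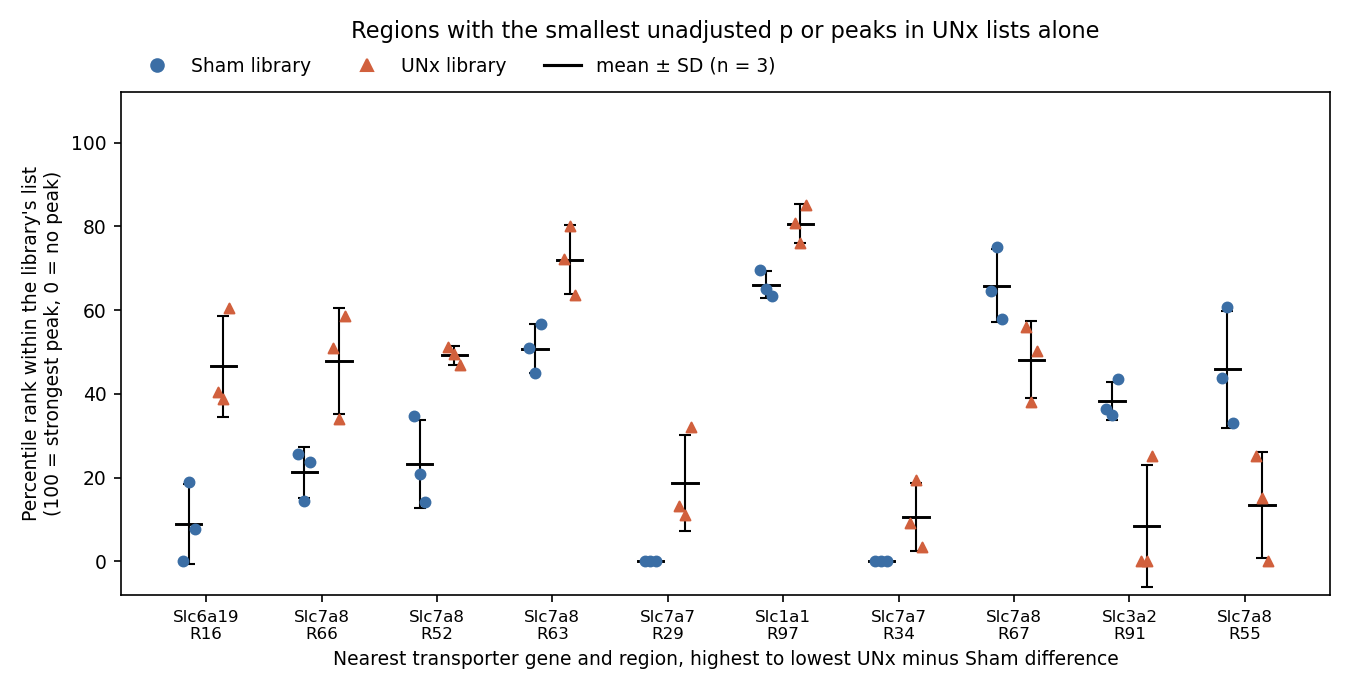
Percentile rank by library at the 8 tested regions of smallest unadjusted p whose groups did not overlap and at R29 and R34, which had peaks in UNx lists alone. Circles are Sham, triangles UNx, and black lines the mean and SD. UNx libraries are above Sham in 7 regions and below in R67, R91 and R55.

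Over all tested regions of the 9 genes the Sham and UNx values were apart in 28 of 93 (30.1%), against 23.7% of all tested regions. The split by direction was 22 with higher UNx values, where 12.0% of all tested regions have that, and 6 with lower UNx values, where 11.7% do. Of the 93, 60 (64.5%) had a difference above 0, against 49.9% of all tested regions. The excess lay in distal regions, where 51 of 74 were higher in UNx, against 49.9% of all tested distal regions. The median difference of the 74 was 5.92 points, against -0.03 points for all tested distal regions. The 14 tested promoter regions of the 9 genes divided evenly, 7 higher and 7 lower, with a median of 0.13 points. The 93 are regions present in at least 3 lists, which passed partly through the group where they are high, and they share 6 libraries, so these counts describe the regions and are no test.

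**Figure D5:**
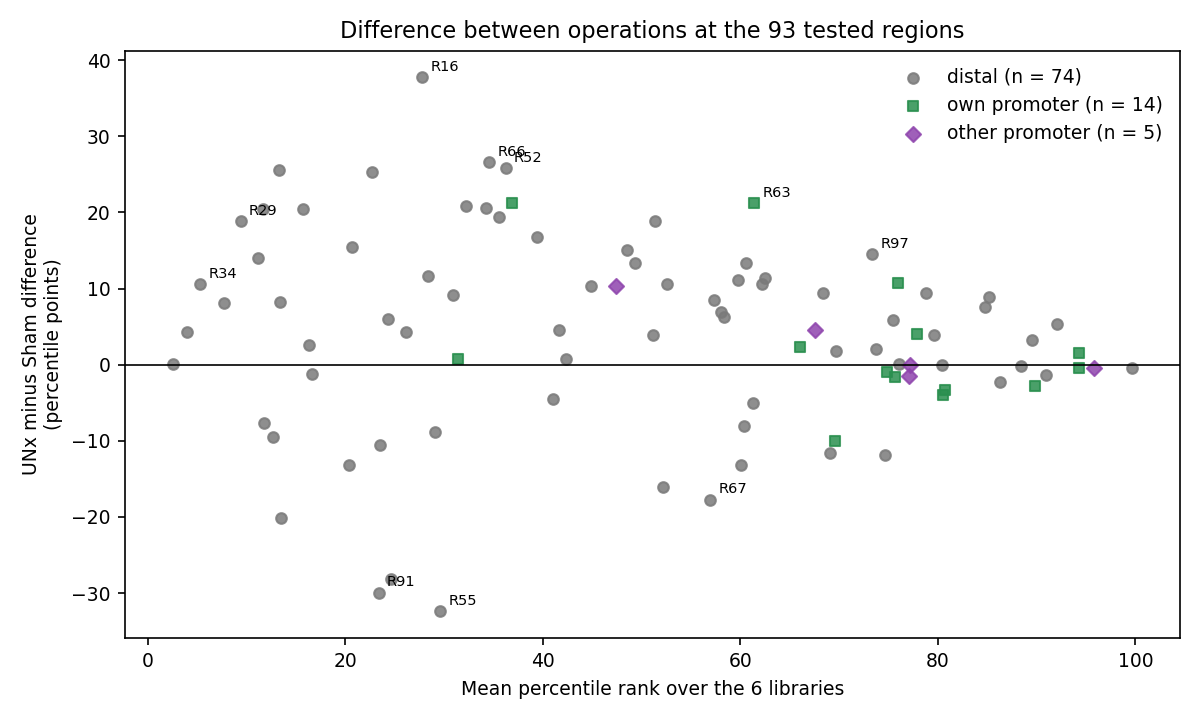
UNx minus Sham difference in percentile points against the mean percentile over 6 libraries for the 93 tested regions, by class. Most distal points lie above the line at 0, while promoter regions lie on both sides, and differences are smaller toward the highest ranks.

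The 33 regions that were not tested had a peak in 1 or 2 lists. Of the 25 present in a single list, 10 were in UNx 3, 5 in UNx 2, 3 in UNx 1, 6 in Sham 2, 1 in Sham 3 and 0 in Sham 1. Regions in a single list were 19.8% of the group and 16.3% of all regions. The split by library was not compared with that over all regions, so it is no result about these genes. The number of peaks at the 9 genes was 94, 101 and 92 in Sham 1, 2 and 3 (95.7 ± 4.73, SD, n = 3) and 101, 97 and 108 in UNx 1, 2 and 3 (102 ± 5.57, SD, n = 3). The difference was 6.33 peaks and the groups overlapped (two-sided exact permutation test, p = 0.3; the smallest possible is 0.1, so this design cannot pass 0.05). Those peaks covered 49090, 40883 and 47203 bp in Sham and 48895, 51258 and 62247 bp in UNx. Just beyond the 20 kb edge lay a region 20248 bp from Slc7a7, with a mean percentile of 8.24 and a difference of 3.30 points, and a region 20684 bp from Slc7a8, with 81.5 and -10.85 points. Just inside the edge lay R5, 19277 bp from Slc6a19, with a mean percentile of 13.6 and a difference of -20.1 points, and R68, 17960 bp from Slc7a8, with 34.2 and 20.5 points. R5 was nearer to Slc6a18 and lay well inside the window of that gene.

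Within 100 bp of the summits, on either strand, strings of tubule transcription factors occurred at about the shares seen in all regions. The HNF1 string GTTAATNAT was in 5 of the 126 (3.97%, against 2.84% of all regions), the HNF4 string CAAAGTCCA in 3 (2.38% against 2.29%) and the direct repeat string AGGNCAAAG in 5 (3.97% against 3.77%). The AP-1 string TGANTCA was in 12 (9.52% against 7.39%), the ERR string TCAAGGTCA in 2 (1.59% against 0.601%) and the ETS string CCGGAAGT in 2 (1.59% against 1.05%). The amino acid response string TGATGNAA, read by ATF4 with C/EBP proteins when amino acids are scarce, was in R54 alone (0.794% against 2.06%), an intronic region of Slc7a8 present in UNx 1 at 59.6 and UNx 3 at 31.0. The CTCF string AGGGGGCGC and the NRF1 string GCGCATGCG were in 0 of the 126, against 1.24% and 0.384% of all regions. A match is a string of letters, and these strings can overlap.

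The other amino acid transporter genes and partners, 49 genes of the annotation, gave 36 tested promoter regions, of which 19 were higher and 17 lower in UNx. limma called 0 of the 36, and 6 had an unadjusted p under 0.05, against 18.6% of all tested regions. There were 11 genes with no promoter peak in any list, among them Slc6a15, Slc7a3, Slc38a1 and Slc15a1. The promoter of Slc6a6, the taurine carrier, was at 90.8, 88.8 and 90.2 in Sham and 77.3, 76.7 and 85.9 in UNx (difference -9.98 points, SE 3.07, adjusted p 0.105 by limma). The promoter of Slc43a2, a uniporter of large neutral amino acids, was at 73.3, 62.2 and 67.3 in Sham and 82.7, 75.8 and 85.3 in UNx (difference 13.7 points, SE 4.85, adjusted p 0.146). The promoter of Slc7a12, a light chain also used as an S3 marker, was at 8.96, 46.1 and 35.3 in Sham and 0, 2.81 and 1.55 in UNx (difference -28.7 points, SE 10.6, adjusted p 0.159). These 3 promoters were named for their small unadjusted p by limma among the 36. The groups did not overlap at them, where 23.7% of all tested regions were apart. Some other promoters of the list, such as those of Slc38a2 and Slc66a1, were apart too. Cltrn, the partner that carries Slc6a19 to the kidney brush border, was at 40.2, 18.4 and 58.2 in Sham and 47.5, 47.4 and 53.8 in UNx.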

How the data were processed

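ATAC-seq peaks of 3 Sham and 3 UNx libraries were analysed from 1 peak list per library, called separately and not pooled. Per the submitters' processing notes, cutadapt 3.4, Bowtie, SAMtools, Picard and MACS2 2.2.7.1 were used with mm10; the filter applied to the lists is not given in the sources used here. Each summit in the deposited lists has the authors' fold enrichment (a ratio), −log10 p and −log10 q and a display score, which were used only to describe, rank and filter peaks within a list. All intervals lay inside GRCm38 chromosomes.

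Summits sharing an interval counted as 1 peak, scored by the strongest (chromosomes 1 to 19, X and Y only). The 77355 peaks of highest −log10 q in each list were ranked as percentiles. Overlap of 1 bp or more joined intervals into regions, each scored by its best peak per list. The 74781 regions present in at least 3 lists were fitted in limma 3.58.1 (R 4.3.3; lmFit, then eBayes with trend=TRUE and robust=TRUE; two-sided; Benjamini-Hochberg over all; threshold 0.05), a step tested on simulated ranks. Peaks per list were compared by an exact permutation test. The lists give no read counts, hence no depth.

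Promoters have a summit within 1 kb of a GENCODE M21 basic coding start, and distal regions none. Named regions are each gene's promoter region and distal region of highest mean percentile. Others are the 8 of smallest unadjusted p whose groups do not overlap, and those in all lists of 1 operation alone. R89, R37, R92, R125, R14, R15, R17, R54, R71, R73, R74, R75, R105, R106, R108 and the outermost regions were added after their values were seen. The 9 genes, the lists and the strings were chosen with earlier results of these data known. Some items that these rules select are not reported here. Alternatives were all deposited peaks, the 20000 strongest, ranking by fold, a −log10 q of at least 5, a reciprocal overlap of 50%, windows of 250 bp either side of summits, normal scores, no filter on lists, GC-corrected ranks, the replicate number as a block, a 5 kb flank, a 2.5 kb promoter window and each library left out; RefSeq starts were added after seeing the data. Same-numbered Sham and UNx libraries did not deviate together, so the main fit has no block.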

Additional observations from a re-analysis of the deposited data

How the results depend on the processing

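The count of 0 called regions at the 9 genes held under every alternative except windows around summits, which called 1. It was the window at the downstream summit of the Slc7a9 promoter R114 (difference 75.1 points, adjusted p 0.00308 by limma). That alternative keeps 1 summit per interval. The downstream summit was the strongest of its interval in UNx 2 and UNx 3 and had its own interval in UNx 1. In each Sham list it shared an interval with a stronger upstream summit, so it did not count there. Over the alternatives limma called 0 to 1583 of all tested regions, and leaving out 1 library took the 589 calls to 73, 96 and 30 without Sham 1, 2 and 3 and to 31, 379 and 49 without UNx 1, 2 and 3, so the call rate beside the 0 is itself unstable. The replicate numbers gave correlations of 0.00819, -0.10 and -0.05; the fit with the replicate block called 0 regions at the 9 genes and 56 in all, and kept the distal median at 5.92 and the promoter median at -0.90 points.

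The median distal difference of 5.92 points stayed above 0: it was 8.27 with all deposited peaks, 8.29 with the 20000 strongest, 8.72 with a −log10 q of at least 5 and 0.19 on the normal score scale, and 4.38 to 6.54 with a library left out. The median of all tested regions was itself 2.14 with all deposited peaks, 2.95 with the −log10 q filter and -0.30 with the 20000 strongest. The promoter median of -0.90 was -9.22 by fold, 0.90 with the −log10 q filter, -2.86 with windows and -2.45 to 0.73 with a library left out. The peak count difference of 6.33 became -0.67 with the 20000 strongest peaks and -7.33 by fold. The count of regions in 1 operation alone was 2, and 1 with the 20000 strongest, 6 with the −log10 q filter, 7 with reciprocal overlap and 4 with windows; with a library left out, which asks for fewer lists, it was 3 without Sham 1, 4 without Sham 2, Sham 3 or UNx 1, 5 without UNx 2 and 7 without UNx 3.

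Of 435 values of the 27 named regions under alternatives, 411 kept their direction and 24 reversed, none past the threshold. R70 was 0.61 with all peaks, 1.56 with the 20000 strongest, 1.26 with the −log10 q filter, and -4.53 to 1.15 with a library left out, above 0 without Sham 2, UNx 1 or UNx 3. R72 was 0.90 with all peaks, 1.44 with the −log10 q filter, 4.96e-05 as normal scores, and -2.63 to 2.23 with a library left out, above 0 without the same libraries. R96 was 0.28 with all peaks and 0.90 with the −log10 q filter. R86 was -1.10 with the 20000 strongest and -2.78 to 5.94 with a library left out, below 0 without Sham 2 or UNx 1. R90 was -1.72 by fold and -0.11 (without Sham 2) to 3.33 with a library left out. R13 was -2.73 to 1.04 with a library left out, above 0 without Sham 1, Sham 2 or UNx 3. R30 was -0.81 by fold, and R116 -9.20 with windows. The cause was not tested for these. R16 had adjusted p of 0.0719 to 0.231 over its 15 alternatives. The unknown depth limits every comparison of ranks, since low ranks rest on weak peaks.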
